A study of Mus musculus with 24 samples.

Results

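The 9 genes described here mark the early stages of the oligodendrocyte lineage, from the dividing precursor to the committed precursor that is about to make myelin. They are Pdgfra, Cspg4, Ptprz1, Gpr17, Lhfpl3, Cspg5, Sox6, Enpp6 and Bmp4. They were chosen by symbol, and all 9 were found among the 55359 genes of the count table. The clearest differences in them were between the control cultures of the study's 2 experiments, where 7 of the 9 were lower in experiment 1 and 43.6% of all genes tested differed. Against controls of the same experiment, 1 of the 9, Cspg5, rose with ethanol at 30 mM, where 9.67% of all genes tested were called, and none of the 9 passed the test at 10 mM. The call of Cspg5 was lost in 11 of 21 alternative analyses.

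The cells were oligodendrocytes from the cortex of C57Bl6J pups of postnatal days 5 to 7. Cortices were digested with papain, and immature oligodendrocytes were taken by magnetic sorting for O4, a surface lipid antigen. They grew on coverslips coated with poly-D-lysine and laminin and were differentiated for 3 days, mainly by triiodothyronine (T3), the active thyroid hormone. They were then kept for 3 days at 30 mM ethanol or at 0 mM in experiment 1, and at 10 mM or 0 mM in experiment 2, with 6 wells in each of the 4 groups. All 4 groups share the strain, the sort and the T3 step. The labels give the experiments as separate batches and place the control plates in an incubator of their own. Ethanol and incubator therefore cannot be told apart, and neither can dose and experiment. The labels number the wells of a group as biological replicates and name no animals, so the p-values measure the spread between wells, which may be technical.

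Oligodendrocyte precursors divide in response to platelet-derived growth factor, which they sense through the receptor encoded by Pdgfra, and they carry the proteoglycan NG2, the product of Cspg4. As precursors leave the cell cycle they lose these proteins and pass through a short committed stage marked by Gpr17, Bmp4 and Enpp6 before the myelin genes reach their full level. Thyroid hormone drives this step in culture.

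Total counts per well were between 1184609 and 1817028. The floor of 3 counts corresponded to 1.65 to 2.53 CPM, the counts scaled to library size by the TMM method, and the members' counts per well were between 27, for Gpr17, and 820, for Ptprz1. Counting error alone gave a coefficient of variation of 3.78% to 4.20% for Ptprz1 and 4.29% to 4.56% for Cspg5, but of 14.1% to 15.7% for Gpr17 and 11.1% to 16.1% for Cspg4, so small changes of the last 2 were not detectable at this depth. Of the marker lists of other cells, the summed level of 11 microglial genes was 197 to 353 CPM in experiment 1 and 2501 to 3237 CPM in experiment 2. The summed level of 14 mature oligodendrocyte genes was 4879 to 11549 CPM over the 24 wells, and that of 8 endothelial genes was 45.9 to 80.7 CPM. Of these 8, only Cldn5 was at 0 in all wells of a group, in 3 of the 4 groups. In bulk RNA such as this, fewer cells of a type and less RNA per cell cannot be told apart.

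**Figure D1:**
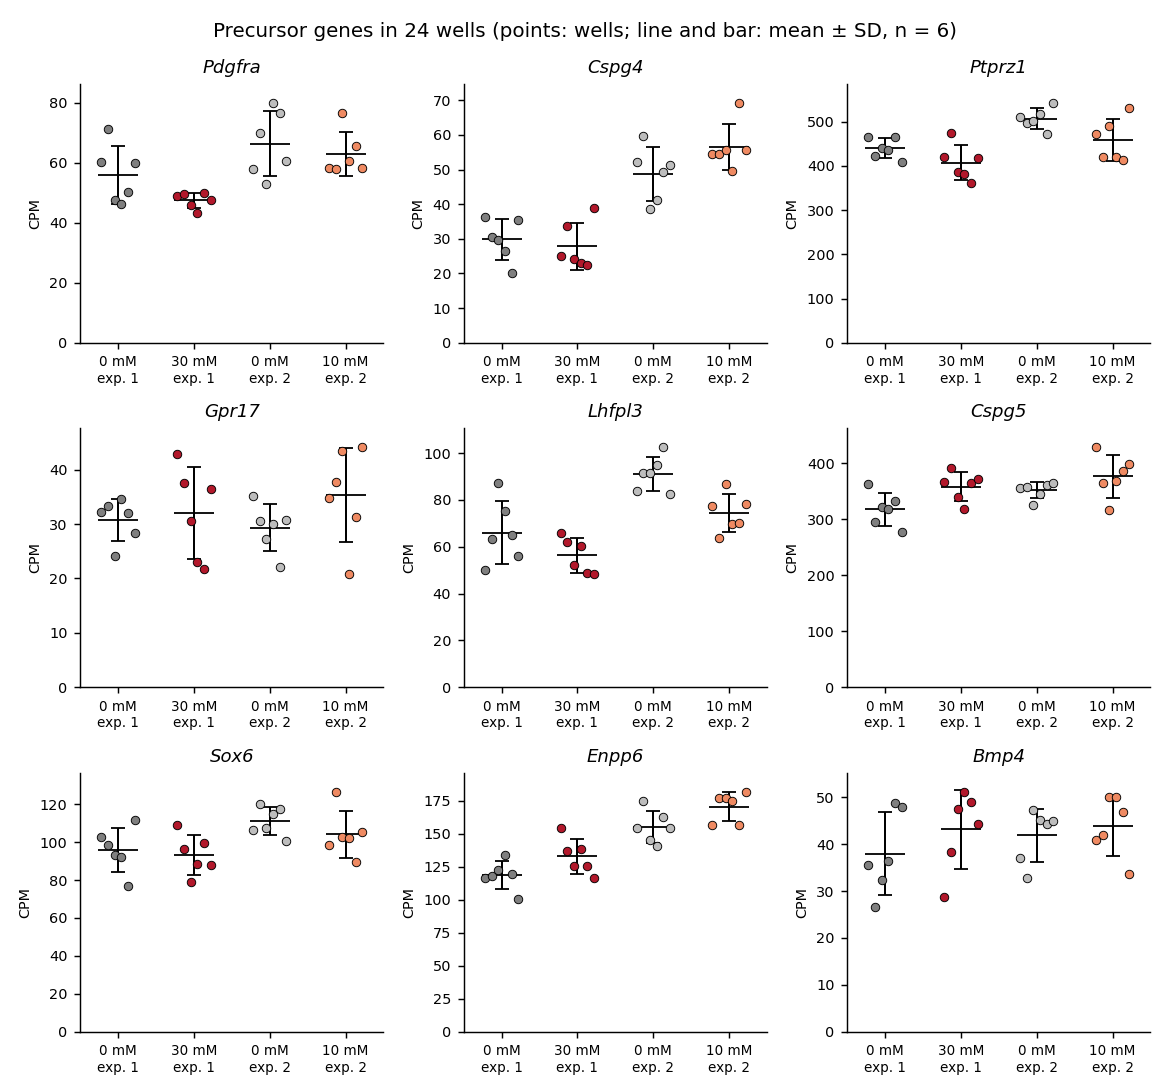
Level of each of the 9 precursor genes in CPM (vertical axis, from 0) in the 24 wells, by group (horizontal axis); points are wells, and lines and bars are the mean ± SD of 6 wells. The control wells of experiment 1 lie below all those of experiment 2 for Cspg4, Ptprz1 and Enpp6, and for no gene do ethanol wells part completely from their own controls.

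The level of the 9 genes without ethanol was compared first, between the 6 control wells of experiment 1 and the 6 of experiment 2. By the quasi-likelihood test of edgeR, 7 of the 9 genes were called (adjusted p under 0.05), each of them lower in experiment 1. Over all 13479 genes tested the same test called 43.6%, with 22.3% lower and 21.3% higher, so differences between these control groups were common. The 2873 higher and 3007 lower genes became 2327 and 3593 under upper-quartile scaling, and 2368 and 3541 under total-count scaling. The median log2 fold change was -0.22 for the 9 genes and -0.0084 for all genes tested. The wells of the groups did not overlap for 3 of the 9, where this held for 18.6% of all genes tested and, counting those lower in experiment 1, for 8.67%.

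Cspg4, Lhfpl3 and Enpp6 had the largest differences, and theirs were called in each of the 21 alternative analyses of this comparison. Their upstream sequences are shown because they are the members that differed most between the control cultures. The 250 bases before the annotated start, on the plus strand of GRCm38.p6, were taken from RefSeq at chr9:56864854-56865103 for Cspg4, chr5:22745804-22746053 for Lhfpl3 and chr8:46986637-46986886 for Enpp6. Capitals mark the E-box CAGCTG, a motif read by basic helix-loop-helix factors, and the core ACAAT of SOX sites, on either strand, so that ACAAT on the other strand reads ATTGT. The 2 motifs share no base in these windows.
Cspg4: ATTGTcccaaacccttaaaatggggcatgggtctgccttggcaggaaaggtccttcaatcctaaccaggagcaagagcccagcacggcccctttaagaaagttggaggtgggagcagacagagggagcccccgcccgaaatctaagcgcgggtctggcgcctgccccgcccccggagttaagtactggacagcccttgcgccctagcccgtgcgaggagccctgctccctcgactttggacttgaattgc
Lhfpl3: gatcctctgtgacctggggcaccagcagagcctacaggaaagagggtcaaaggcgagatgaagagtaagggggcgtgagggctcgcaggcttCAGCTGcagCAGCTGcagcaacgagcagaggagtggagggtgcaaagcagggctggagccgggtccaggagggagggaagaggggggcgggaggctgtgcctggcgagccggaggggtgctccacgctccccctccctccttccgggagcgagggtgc
Enpp6: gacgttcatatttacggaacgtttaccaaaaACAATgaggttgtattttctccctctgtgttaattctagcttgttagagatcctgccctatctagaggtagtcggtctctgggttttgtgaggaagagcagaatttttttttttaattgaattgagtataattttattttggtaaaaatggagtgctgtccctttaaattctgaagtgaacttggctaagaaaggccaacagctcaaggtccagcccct
The Lhfpl3 window held CAGCTG in 2 places, and the Cspg4 and Enpp6 windows held ACAAT in 1 place each. Neither motif was in the windows of Pdgfra, Ptprz1 and Bmp4, which are not shown, and the several windows of Sox6 differed among themselves. Of the 32851 upstream windows of this length in the table, 13.0% held CAGCTG and 27.7% held ACAAT. A match is a description of these letters and not a shown binding site.

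Cspg4, the gene of the NG2 proteoglycan, had 20.1, 30.2 and 36.3 CPM in the lowest, median and highest control well of experiment 1, and 38.7, 50.4 and 59.6 CPM in experiment 2. Every well of experiment 1 was below every well of experiment 2. The log2 fold change was -0.73 (SE 0.13, 95% interval -0.98 to -0.48, edgeR adjusted p = 1.57e-06), a level 0.604 times that of experiment 2. Lhfpl3, which encodes a tetraspan membrane protein enriched in precursors, had a lowest, median and highest level of 50.0, 64.1 and 87.4 CPM against 82.7, 91.7 and 102 CPM. Of the 6 wells of experiment 1, 5 lay below all those of experiment 2, and the log2 fold change was -0.46 (SE 0.094, 95% interval -0.64 to -0.27, edgeR adjusted p = 3.88e-05).

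Enpp6 encodes a choline-specific phosphodiesterase made by newly formed oligodendrocytes. It had 101, 119 and 134 CPM in the lowest, median and highest control well of experiment 1, against 141, 154 and 174 CPM in experiment 2, with no overlap. Its log2 fold change was -0.39 (SE 0.073, 95% interval -0.54 to -0.25, edgeR adjusted p = 6.54e-06).

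The receptors Pdgfra and Ptprz1 were also lower in the controls of experiment 1. Ptprz1 encodes a receptor tyrosine phosphatase that carries chondroitin sulfate chains and is abundant in precursors. Its lowest, median and highest levels were 409, 438 and 466 CPM against 472, 507 and 543 CPM, again without overlap, and its log2 fold change was -0.21 (SE 0.055, edgeR adjusted p = 0.0012). This call was lost only where no low-count filter was applied (edgeR adjusted p = 0.0578). Pdgfra had 46.2, 55.0 and 71.3 CPM against 53.0, 65.3 and 80.0 CPM, groups that overlapped in part. Its log2 fold change was -0.26 (SE 0.11, edgeR adjusted p = 0.0421).

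Sox6, a transcription factor that holds precursors back from terminal differentiation, had 76.9, 95.9 and 112 CPM in the lowest, median and highest control well of experiment 1 and 101, 111 and 120 CPM in experiment 2. Its log2 fold change was -0.22 (SE 0.081, edgeR adjusted p = 0.0211). Cspg5, the gene of neuroglycan C, a transmembrane proteoglycan, had 277, 321 and 363 CPM against 326, 357 and 366 CPM. Its log2 fold change was -0.15 (SE 0.059, edgeR adjusted p = 0.0313). The calls of Pdgfra, Sox6 and Cspg5 were the least steady of the 7. Pdgfra lost its call in 9 of 21 alternatives, among them DESeq2 and leaving out replicate 3, 4 or 5 of experiment 1 or replicate 2, 4 or 5 of experiment 2, with adjusted p-values up to 0.167. Sox6 lost it in 8, among them leaving out replicate 3, 4 or 5 of experiment 1 or replicate 2 or 5 of experiment 2, and Cspg5 in 10, among them leaving out replicate 2, 3, 4 or 6 of experiment 1 or replicate 1, 2, 5 or 6 of experiment 2.

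Gpr17 and Bmp4, both markers of the committed stage, did not pass between the control groups. Gpr17, an orphan G protein-coupled receptor that restrains maturation, had 24.1, 32.1 and 34.7 CPM in the lowest, median and highest control well of experiment 1 and 22.1, 30.3 and 35.2 CPM in experiment 2. Its log2 fold change was 0.063 (95% interval -0.21 to 0.33, edgeR adjusted p = 0.735). Bmp4, a secreted bone morphogenetic protein, had 26.7, 36.0 and 48.8 CPM against 32.8, 44.6 and 47.3 CPM, with a log2 fold change of -0.16 (95% interval -0.41 to 0.092, edgeR adjusted p = 0.316). The interval of Bmp4 includes the change called for Pdgfra.

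**Figure D2:**
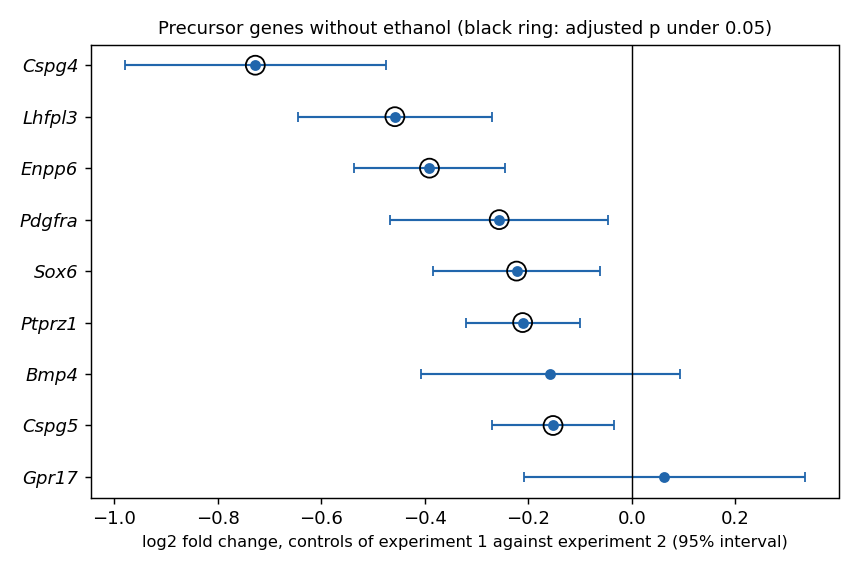
Log2 fold change of the 9 genes in the 6 control wells of experiment 1 against the 6 of experiment 2 (horizontal axis), with 95% intervals as bars; a black ring marks an edgeR adjusted p under 0.05. The estimates run from -0.73 for Cspg4 to 0.063 for Gpr17, and 7 of the 9 are ringed, all below 0.

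Markers of other cells were compared between the same controls, where 43.6% of all genes tested were called in either direction. Counts of calls are over the genes tested, while summed levels, also those in brackets, are over all genes of a list. All 9 microglial genes tested were lower in the controls of experiment 1, with a summed level of 197 to 353 CPM against 2501 to 3041 CPM. Of 9 fibroblast and pericyte genes 4 were lower (406 to 640 CPM against 549 to 747 CPM), and of 8 neuronal genes 3 were lower (328 to 407 CPM against 459 to 514 CPM). Of 9 astrocyte genes 6 were higher and 2 lower (3748 to 4727 CPM against 4322 to 4678 CPM), and of 12 mature oligodendrocyte genes 1 was higher and 2 lower (4985 to 6077 CPM against 4879 to 6200 CPM). In either direction, the shares called of the fibroblast and pericyte list and of the neuronal list were near 43.6%. That of the mature oligodendrocyte list was below it, and those of the astrocyte and microglial lists were above it. By direction, 22.3% of all genes tested were called lower and 21.3% higher. The shares called lower of the fibroblast and pericyte list and of the neuronal list were above 22.3%, on few genes. Pdgfra is also made by fibroblasts and Cspg4 by pericytes. The part of these cells in the difference was not tested.

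The question of the study's design was how the transcripts of these cells change with ethanol at a high and at a moderate concentration. At 30 mM, 1 of the 9 genes, Cspg5, was called, and it was higher. The background at 30 mM was 9.67% of 13235 genes tested, with 3.02% higher and 6.65% lower, so 1 call in 9 genes is near the background. Under upper-quartile normalization the 400 higher and 880 lower genes became 551 and 697. At 10 mM, 0 of the 9 genes were called by edgeR, by DESeq2 or by limma voom, against a background of 0.657% of 13538 genes. At an unadjusted p under 0.05, edgeR gave 2 of the 9 at 30 mM (Cspg5 and Enpp6) and 2 at 10 mM (Ptprz1 and Lhfpl3), where it gave 23.5% and 10.1% of all genes. DESeq2 gave no adjusted p to Cspg4, Gpr17 and Bmp4 at 10 mM. The median log2 fold change of the 9 was -0.0026 at 30 mM and 0.072 at 10 mM, beside 0.023 and -0.0023 for all genes tested. No member's ethanol wells lay wholly outside its controls at either dose, a separation found for 4.16% of all genes at 30 mM and 0.842% at 10 mM.

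Among the receptors, Pdgfra had 43.2, 48.2 and 49.8 CPM in the lowest, median and highest well at 30 mM. All 6 wells lay below the control median of 55.0 CPM, but only 2 lay below every control, and the log2 fold change of -0.20 (95% interval -0.43 to 0.026) did not pass (edgeR adjusted p = 0.279). At 10 mM its level was 57.8, 59.6 and 76.5 CPM, within the control range, and the log2 fold change was -0.072 (95% interval -0.27 to 0.12, edgeR adjusted p = 0.871).

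Ptprz1 had 362, 402 and 475 CPM in the lowest, median and highest well at 30 mM and 413, 447 and 532 CPM at 10 mM. At each dose 3 of the 6 ethanol wells lay below all controls. Of the others, 1 at 30 mM lay above all controls, and the rest lay among them. The log2 fold changes were -0.084 (95% interval -0.21 to 0.041, edgeR adjusted p = 0.438) at 30 mM and -0.15 (95% interval -0.26 to -0.035, edgeR adjusted p = 0.300) at 10 mM.

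Gpr17 varied widely among the ethanol wells, with 21.7, 33.5 and 42.8 CPM in the lowest, median and highest well at 30 mM and 20.8, 36.3 and 44.1 CPM at 10 mM. Wells above all controls and wells below the lowest control stood in the same group at both doses. Its coefficient of variation was 26.3% and 24.5% in the ethanol groups and 12.7% and 14.8% in their controls, of which counting alone gives about 14.1% to 15.7%. The log2 fold changes were 0.095 (95% interval -0.20 to 0.39, edgeR adjusted p = 0.748) and 0.25 (95% interval -0.031 to 0.52, edgeR adjusted p = 0.570). The Gpr17 gene lies inside Lims2 on the opposite strand in the GENCODE M21 annotation. Lims2 itself was given 457 counts over the 24 wells. Since use of strand in counting is not given in the sources used here, Gpr17 counts could hold reads of Lims2, in a number that is not known.

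The proteoglycan genes differed in their values. Cspg5 had 319, 365 and 392 CPM in the lowest, median and highest well at 30 mM, against 277, 321 and 363 CPM in its controls. Of the 6 ethanol wells, 4 lay above every control. Its log2 fold change of 0.20 (SE 0.065, 95% interval 0.067 to 0.33, edgeR adjusted p = 0.0447) corresponded to a rise of 14.7%. The call was close to the threshold. It was lost without a low-count filter (edgeR adjusted p = 0.311) and with the replicate number as a block (edgeR adjusted p = 0.0532), and it was lost when replicate 2, 3, 5 or 6 at 30 mM, or any of replicates 2 to 6 of the controls, was left out (edgeR adjusted p from 0.0539 to 0.105). At 10 mM Cspg5 had 316, 377 and 429 CPM, also with 4 wells above every control and 1 below all of them, and the log2 fold change was 0.093 (95% interval -0.024 to 0.21, edgeR adjusted p = 0.623).

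Cspg4 had 22.5, 24.6 and 38.8 CPM in the lowest, median and highest well at 30 mM, with 1 well above all controls and the others among them, and a log2 fold change of -0.063 (95% interval -0.38 to 0.25, edgeR adjusted p = 0.855). At 10 mM it had 49.5, 55.0 and 69.2 CPM. There 1 of the 6 wells lay above all controls, and the log2 fold change was 0.20 (95% interval -0.0076 to 0.41, edgeR adjusted p = 0.521). Both groups of experiment 2 lay above both groups of experiment 1 by their medians, as the plot of levels by well shows.

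Lhfpl3 had 48.3, 56.4 and 66.0 CPM in the lowest, median and highest well at 30 mM and 63.7, 73.6 and 86.7 CPM at 10 mM. At 10 mM, 5 of the 6 wells lay below every control and all 6 below the control median. The log2 fold change there was -0.29 (SE 0.085, 95% interval -0.46 to -0.12), the largest of the 9 at this dose, but it did not pass (edgeR adjusted p = 0.0897). It passed when replicate 3 at 10 mM was left out (edgeR adjusted p = 0.0482) and in none of the other 20 alternatives. At 30 mM the log2 fold change was -0.20 (95% interval -0.43 to 0.022, edgeR adjusted p = 0.269), with 2 of the 6 wells below every control. Several noncoding gene models overlap Lhfpl3. The most counted were A930003O13Rik on the opposite strand with 471 counts and Gm21846 on the same strand with 420 counts over the 24 wells. Lhfpl3 counts could hold reads of these models, in a number that is not known.

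Enpp6, the enzyme of the newly formed stage, had 116, 131 and 154 CPM in the lowest, median and highest well at 30 mM and 156, 176 and 182 CPM at 10 mM. At each dose 3 of the 6 wells lay above every control. The log2 fold change was 0.19 at 30 mM (95% interval 0.032 to 0.35, edgeR adjusted p = 0.123) and 0.13 at 10 mM (95% interval -0.0011 to 0.27, edgeR adjusted p = 0.5004). At 30 mM it passed under upper-quartile normalization (edgeR adjusted p = 0.0438) and with the low-count filter raised to 30 counts (edgeR adjusted p = 0.0299).

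For the transcription factor Sox6, levels were 78.8, 92.5 and 109 CPM in the lowest, median and highest well at 30 mM and 89.3, 103 and 126 CPM at 10 mM. Both groups overlapped their controls. The log2 fold changes were -0.0026 (95% interval -0.19 to 0.18, edgeR adjusted p = 0.992) and -0.099 (95% interval -0.25 to 0.057, edgeR adjusted p = 0.726). The ligand gene Bmp4 had 28.7, 45.9 and 51.2 CPM at 30 mM and 33.7, 44.4 and 50.1 CPM at 10 mM, with 2 wells above every control in each group. Its log2 fold changes were 0.20 (95% interval -0.086 to 0.49, edgeR adjusted p = 0.408) and 0.072 (95% interval -0.16 to 0.30, edgeR adjusted p = 0.891).

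**Figure D3:**
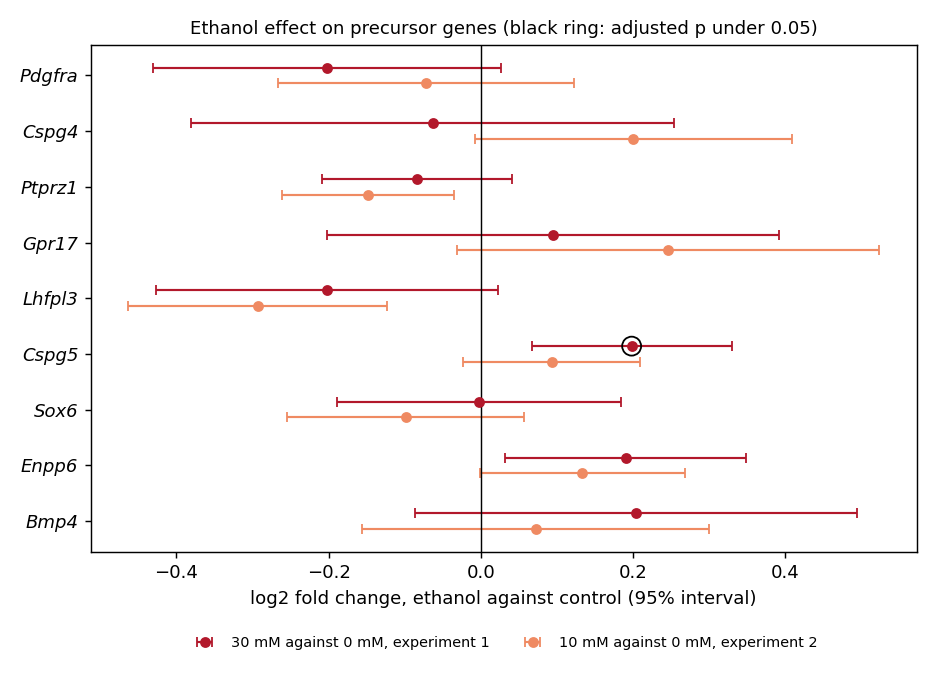
Log2 fold change of the 9 genes with ethanol against the controls of the same experiment (horizontal axis), at 30 mM in dark red and at 10 mM in orange, with 95% intervals as bars and 6 wells a group; a black ring marks an edgeR adjusted p under 0.05. Cspg5 at 30 mM is the ringed estimate, and the 2 estimates of a gene fall on the same side of 0 for all genes but Cspg4.

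The comparisons at 30 and 10 mM share no wells. The sign of the log2 fold change was the same at both doses for 8 of the 9 genes, while 6319 of 12627 genes tested at both doses (50.0%) kept their sign. Pdgfra, Ptprz1, Lhfpl3 and Sox6 were negative at both, Cspg5, Enpp6, Gpr17 and Bmp4 were positive at both, and Cspg4 was negative at 30 mM and positive at 10 mM. The sign of Sox6 at 30 mM, whose change was close to 0, turned positive in 11 of 21 alternatives, among them RLE, upper-quartile and total-count scaling. At 30 mM the sign of Gpr17 turned without replicate 1 at 30 mM (-0.010) and that of Cspg4 without control replicate 1 (0.00080), so the tally of 8 is not steady. Of these changes, that of Cspg5 at 30 mM was the single call. The 95% intervals of the 9 genes lay between -0.43 and 0.49 at 30 mM and between -0.46 and 0.52 at 10 mM.

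The ethanol change was also averaged over both experiments, in a fit of all 24 wells chosen after the shared signs of the members had been seen, so it is no independent support for them. By edgeR, 3 of the 9 members passed, where 5.62% of 14655 genes did. For Lhfpl3 the average log2 fold change was -0.24 (SE 0.071, edgeR adjusted p = 0.0244), a call lost only without control replicate 3 of experiment 1 (edgeR adjusted p = 0.0701). Enpp6 had 0.17 (SE 0.053, edgeR adjusted p = 0.0487) and Cspg5 0.15 (SE 0.046, edgeR adjusted p = 0.038), and these calls were lost in 26 and 25 of 32 alternatives, including 22 of 24 fits without 1 well for each. Ptprz1 had -0.11 (edgeR adjusted p = 0.147). The other 5 were between -0.13 for Pdgfra (edgeR adjusted p = 0.370) and 0.18 for Gpr17 (edgeR adjusted p = 0.402).

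Whether the ethanol change differed between the experiments was tested over all 24 wells. None of the 9 genes passed in edgeR (0 also at an unadjusted p under 0.05), in DESeq2 or in limma voom, where 3.28% of 14655 genes did and 17.2% had an unadjusted p under 0.05. The differences, as the change at 30 mM minus that at 10 mM, were between -0.28 for Cspg4 (95% interval -0.65 to 0.098, edgeR adjusted p = 0.462) and 0.12 for Bmp4 (95% interval -0.25 to 0.49, edgeR adjusted p = 0.781). These intervals leave room for differences as large as the changes themselves.

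The summed level of the 9 genes was 1126 to 1263 CPM in the controls of experiment 1 and 1128 to 1320 CPM at 30 mM, and 1339 to 1434 CPM in the controls of experiment 2 and 1316 to 1488 CPM at 10 mM. Ethanol wells overlapped their controls, and the control groups of the experiments did not overlap. Ptprz1 and Cspg5 hold most of the counts in this sum. Over the other 7 genes it was 412 to 444 CPM and 405 to 474 CPM in experiment 1, and 510.5 to 579 CPM and 521 to 592 CPM in experiment 2, in the order control and ethanol.

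Other genes of the same stages were followed as lists. Of all genes tested, 9.67% were called at 30 mM, 0.657% at 10 mM and 43.6% between the control groups. An unadjusted p under 0.05 was found by edgeR for 23.5% at 30 mM and 10.1% at 10 mM. The log2 fold change was above 0 for 54.0% at 30 mM and 49.3% at 10 mM. Of 15 further precursor genes, 14 were tested (Susd5 was too low). At 30 mM, Rlbp1 and Cacng4 fell and Gria3 rose, and the other 11 did not pass. The list's median log2 fold change was -0.12, beside 0.023 for all genes. Rlbp1, a retinaldehyde-binding protein found in precursors and other glia, went from 59.5 ± 8.34 to 33.7 ± 1.97 CPM (mean ± SD of 6 wells), and its ethanol wells lay below all controls. The log2 fold change was -0.79 (SE 0.11, edgeR adjusted p = 2.28e-06). Cacng4, an auxiliary subunit of AMPA receptors, had a log2 fold change of -0.35 (edgeR adjusted p = 0.00914), which was lost without control replicate 4 of experiment 1 (edgeR adjusted p = 0.0713). Gria3, a subunit of those receptors, rose by 0.48 on the log2 scale (edgeR adjusted p = 0.00577).

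At 10 mM, 0 of the 14 precursor genes were called by edgeR, and 5 had an unadjusted p under 0.05. The median was -0.23, beside -0.0023 for all genes, and 4 of the 14 were above 0. Xylt1, which starts the sugar chains of proteoglycans, had a log2 fold change of -0.36 (edgeR adjusted p = 0.0845), Rlbp1 of -0.36 (edgeR adjusted p = 0.0886), and Vcan, the matrix proteoglycan versican, of -0.27 (edgeR adjusted p = 0.357). Xylt1 passed without replicate 1 at 10 mM (edgeR adjusted p = 0.0241) and Rlbp1 without replicate 6 (edgeR adjusted p = 0.0145). Between the control groups, 5 of the 14 were lower in experiment 1 (Pcdh15, Matn4, Nxph1, Dscam and Vcan), named after their values were seen, and Megf11 was among those higher. Vcan had the value -0.66 there (edgeR adjusted p = 4.03e-06) and Matn4 -0.82 (edgeR adjusted p = 6.64e-09).

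The 15 further genes of committed precursors and newly formed oligodendrocytes were all tested, and 0 were called by edgeR at either dose, with 4 at 30 mM and 2 at 10 mM at an unadjusted p under 0.05. Their median was 0.080 at 30 mM and 0.081 at 10 mM, and 11 of 15 were above 0 at each dose. Tcf7l2, a transcription factor of the step into myelination, had a log2 fold change of 0.20 at 30 mM (edgeR adjusted p = 0.120) and passed without replicate 1 at 30 mM (edgeR adjusted p = 0.0184) or without control replicate 6 (edgeR adjusted p = 0.049). Rras2 had 0.27 (edgeR adjusted p = 0.165) and Fam107b -0.21 (edgeR adjusted p = 0.127). At 10 mM, Cnksr3 had 0.35 (edgeR adjusted p = 0.464), Fam107b 0.23 (edgeR adjusted p = 0.488) and Ust 0.33 (edgeR adjusted p = 0.533). Between the control groups 5 were lower in experiment 1 (Neu4, Itpr2, Bcas1, Frmd4a and Kif19a) and 3 higher (Rras2, Fam107b and Cnksr3), named after their values were seen.

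Genes that act with the members were followed next. Of the platelet-derived growth factor ligands and the second receptor, none was called by edgeR at 30 mM (0 of 5, with 1 at an unadjusted p under 0.05) or at 10 mM (0 of 3, with 1). All those tested had negative log2 fold changes at both doses, where 54.0% and 49.3% of all genes tested were above 0. This tally is not steady, since Pdgfrb at 30 mM turned positive in 2 alternatives that left out 1 well (up to 0.016). At 30 mM, Pdgfa, the ligand that precursors answer to most, had -0.16 (edgeR adjusted p = 0.205), Pdgfb -0.24 (edgeR adjusted p = 0.421) and Pdgfd -0.25 (edgeR adjusted p = 0.599). At 10 mM, Pdgfb had -0.32 (edgeR adjusted p = 0.356), Pdgfrb -0.22 (edgeR adjusted p = 0.766) and Pdgfa -0.076 (edgeR adjusted p = 0.784).

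Of 8 ligands and partners of the Ptprz1 phosphatase, 4 were called at 30 mM, where 9.67% of all genes tested were. Tnc, the matrix protein tenascin C, fell from 187 ± 28.2 to 106 ± 22.1 CPM (mean ± SD of 6 wells), and the log2 fold change was -0.80 (SE 0.096, edgeR adjusted p = 5.91e-08). Fgf2, a growth factor for precursors, rose from 57.5 ± 9.99 to 92.5 ± 4.45 CPM (mean ± SD of 6 wells), with a log2 fold change of 0.70 (edgeR adjusted p = 1.27e-06, SE 0.097). Nfasc, the adhesion protein neurofascin, rose by 0.49 (edgeR adjusted p = 3.15e-06). For these 3 the ethanol and control wells did not overlap. Nrcam, named after its values were seen, rose by 0.28 (edgeR adjusted p = 0.00701, or 0.0666 without a low-count filter). At 10 mM 0 of the 8 were called by edgeR and 1 had an unadjusted p under 0.05. Nfasc had 0.20 there (edgeR adjusted p = 0.107), which passed without replicate 6 at 10 mM (edgeR adjusted p = 0.0105), Cntn1 -0.13 (edgeR adjusted p = 0.552) and Tnc -0.11 (edgeR adjusted p = 0.732). Tnc and Fgf2 also differed between the control groups, Tnc higher in experiment 1 by 1.16 on the log2 scale and Fgf2 lower with -0.75.

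For Bmp4, 26 further genes of the bone morphogenetic protein pathway were listed. At 30 mM 22 were tested, and Smad7, an inhibitor of the pathway, rose by 0.43 (edgeR adjusted p = 0.0425) while Fstl1, a secreted follistatin-like protein, fell by 0.22 on the log2 scale (edgeR adjusted p = 0.0485). The other 20 did not pass, so the share called was near the 9.67% of all genes tested. The list's median log2 fold change was 0.039, beside 0.023 for all genes. The calls of Smad7 and Fstl1 were near the threshold. That of Smad7 was lost in 11 of 21 alternatives, among them DESeq2, limma voom and leaving out replicate 3, 4, 5 or 6 at 30 mM or control replicate 1, 2, 3 or 4. That of Fstl1 was lost in 16, among them DESeq2, limma voom and leaving out any well but replicate 2 at 30 mM and control replicate 6. Acvr2b, a receptor, had 0.55 (edgeR adjusted p = 0.0577). At 10 mM 0 of 20 were called by edgeR, with 4 at an unadjusted p under 0.05, where 0.657% and 10.1% of all genes tested were. The list's median at 10 mM was -0.022, beside -0.0023 for all genes. There Id2, a target of the pathway, had -0.23 (edgeR adjusted p = 0.0632), the receptor gene Bmpr1a -0.22 (edgeR adjusted p = 0.248) and Smad4 0.23 (edgeR adjusted p = 0.323). Id2 passed without replicate 6 at 10 mM (edgeR adjusted p = 0.00648) and with upper-quartile scaling, total-count scaling or the filter at 30 counts (edgeR adjusted p from 0.0273 to 0.0342).

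Markers of other cells and stages were followed with ethanol too. The share called of all genes tested was 9.67% at 30 mM and 0.657% at 10 mM. Summed levels, also those in brackets, are again over all genes of a list, with those too low to test. At 30 mM, 6 of 12 mature oligodendrocyte genes tested were higher and none lower, with a summed level of 6668 to 11549 CPM against 4985 to 6077 CPM in the controls, and replicate 1 alone held the highest value. Of 10 proliferation genes 9 were lower (782 to 1052 CPM against 1105 to 1371 CPM), of 9 astrocyte genes 5 were higher (5171 to 6635 CPM against 3748 to 4727 CPM), and of 8 fibroblast and pericyte genes 4 were lower (272 to 325 CPM against 406 to 640 CPM). Of 7 microglial genes 1 was higher (203 to 335 CPM against 197 to 353 CPM), of 6 neuronal genes 1 was lower (329 to 400 CPM against 328 to 407 CPM), and of 4 endothelial genes none was called (49.5 to 80.7 CPM against 54.9 to 75.5 CPM). Cspg5 and Ptprz1 are also made by astrocytes and Pdgfra by fibroblasts. The part of these cells in the change of Cspg5 was not tested.

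At 10 mM, 3 of 12 mature oligodendrocyte genes tested were higher (6093 to 6264 CPM against 4879 to 6200 CPM) and 2 of 8 fibroblast and pericyte genes lower (558 to 617 CPM against 549 to 747 CPM). The levels in brackets are sums over all genes of a list. No proliferation gene of 10 was called (1055 to 1324 CPM against 1051 to 1190 CPM), and no astrocyte gene of 9 (4259 to 4958 CPM against 4322 to 4678 CPM). Of 9 microglial genes 1 was higher (2653 to 3237 CPM against 2501 to 3041 CPM), of 7 neuronal genes 1 was higher and 1 lower (496 to 538 CPM against 459 to 514 CPM), and of 4 endothelial genes none was called (53.2 to 68.5 CPM against 45.9 to 76.7 CPM).

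**Figure D4:**
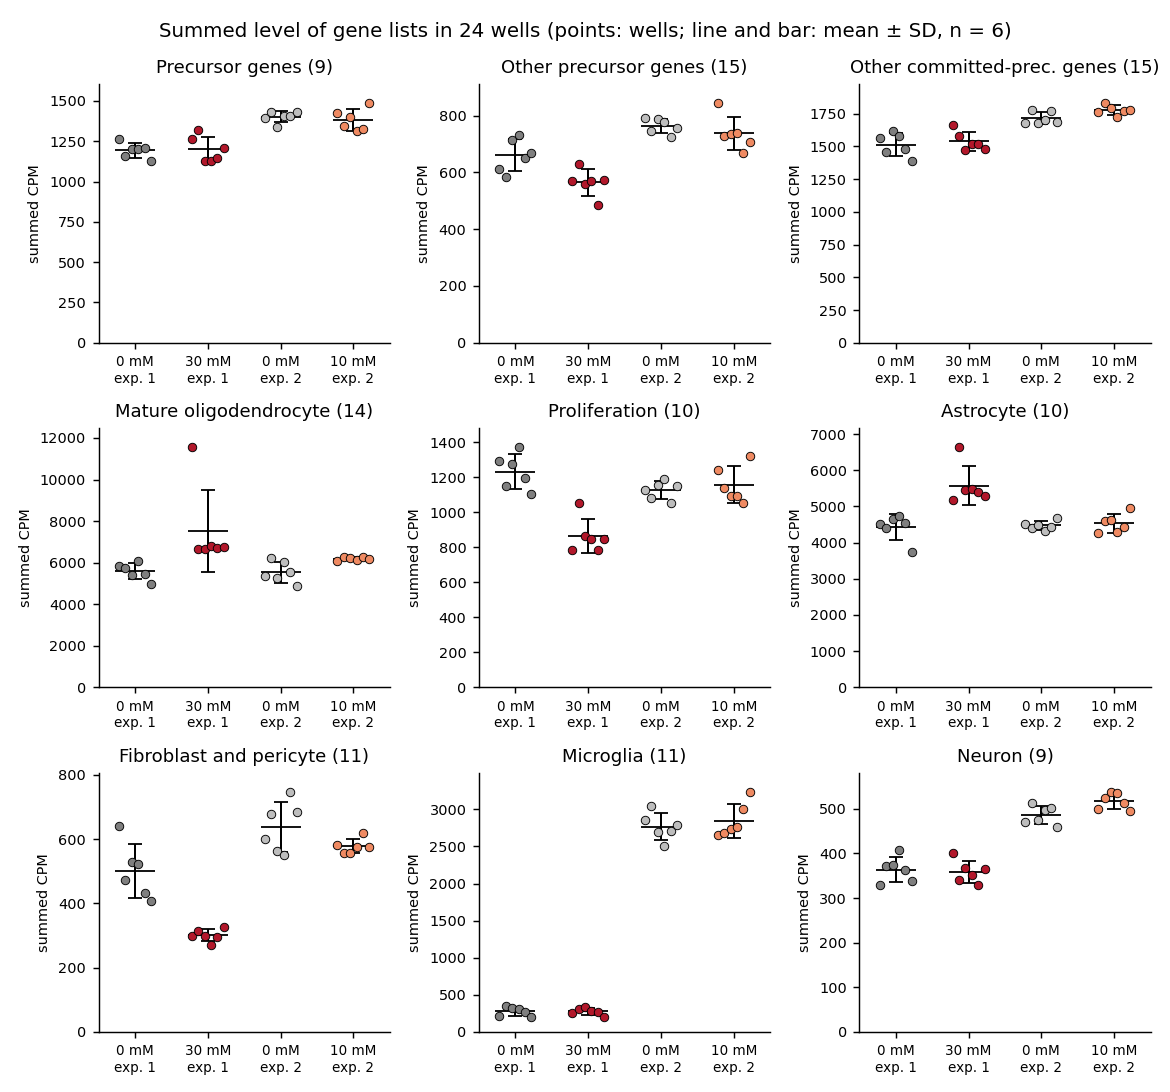
Summed level in CPM (vertical axis, from 0) of the 9 precursor genes, of 2 lists of further genes of the same stages and of 6 marker lists, in the 24 wells by group (horizontal axis); points are wells, lines and bars are the mean ± SD of 6 wells, and the number of genes is in brackets. The sums of the 9 precursor genes overlap between ethanol and control wells, while the proliferation sums at 30 mM lie below all their controls and the microglial sums part the experiments.

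The genes whose pattern over the 24 wells was most like each member were found from centred log2 CPM, as the root-mean-square (RMS) difference over the wells, among 13349 genes with a symbol and a mean log2 CPM of at least 3. The wells share library depth, and the difference between the experiments enters every pattern, so the values are a description. The closest pattern to any member was that of Itm2b to Enpp6, with an RMS difference of 0.075 where the RMS of Enpp6 about its own mean was 0.23. Bcas1, a gene of newly formed oligodendrocytes, came next with 0.11, and then Zbtb7a with 0.12. For Cspg5 the nearest were Kif1b, Ptn and Ube3a (0.11 each, own RMS 0.14). Ptn, which encodes the growth factor pleiotrophin, a ligand of the Ptprz1 phosphatase, is among them.

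For Lhfpl3, Washc4 (0.18) and Atp2b1 (0.18) were among the 3 nearest, with an own RMS of 0.31. For Cspg4 they were Srek1 (0.23), Rest (0.23) and Prrc2c (0.23), with an own RMS of 0.49. Ptprz1 was nearest to Pcdh10, Klf3 and Eprs (0.099 to 0.10, own RMS 0.15). Sox6 was nearest to Ralb, Ppt1 and Ik (0.13 to 0.15, own RMS 0.17), and Pdgfra to Prrc1, Ep300 and Mpi (0.16 to 0.17, own RMS 0.25). Gpr17 was nearest to Plxna3, Setd5 and Mrpl43 (0.20 to 0.23, own RMS 0.29) and Bmp4 to Gnaz, Arhgap31 and Utrn (0.18 to 0.19, own RMS 0.26). No member was among the 3 nearest genes of another. The closest pair among the members by RMS difference was Ptprz1 and Cspg5 (0.18), and the closest by rank was Sox6, the 47th nearest gene to Pdgfra. The difference of Ptprz1 and Cspg5 exceeded the own RMS of each (0.15 and 0.14), so each was nearer to a flat line than to the other. That of Sox6 and Pdgfra (0.20) exceeded the own RMS of Sox6 (0.17).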

How the data were processed

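RNA of 24 wells was sequenced by 3′ TagSeq, which reads the 3′ end of transcripts, with single-end reads of 100 bases per the labels' protocols. The authors deposited raw counts per gene, 1 column a well, under Ensembl identifiers. The submitters' processing notes name cutadapt 1.18, STAR and GRCm39. The counter, the annotation, use of strand and treatment of PCR duplicates are not given in the sources used here, so reads may not be independent molecules. The floor of 3 counts covers counting error only, while the 95% intervals of fold changes come from the edgeR fits and include the spread between wells. Symbols came from a table of gene names (52083 of 55359 identifiers, 94.1%). The 60 pairs of wells within groups differed by more than sampling noise (chi-square per degree of freedom 1.07 to 2.88 over genes with at least 10 counts), and none was merged.

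The members and the gene lists were chosen with earlier results of these data known. Each comparison was fitted over the whole table with edgeR 4.0.16 (R 4.3.3), using TMM, filterByExpr at 10 counts and the quasi-likelihood test, with Benjamini-Hochberg adjustment over all genes tested and calls at an adjusted p under 0.05. The wells of 1 experiment entered the fit of its dose. The text names all 9 members and, from each list of acting or same-stage genes, up to 3 genes with the smallest p at each dose. On simulated counts with 200 genes changed, log2 changes of 0.5 were recovered in 63.5% of cases for 30 mM (12947 genes tested), 76% for 10 mM (13268 genes tested), 62% between control groups (13180 genes tested) and 26% for the difference between experiments (14282 genes tested). Only genes above a set mean count were changed. The members' estimated ethanol changes were all smaller than 0.5 in size, and recovery of such smaller changes was not tested. Alternatives were RLE, upper-quartile and total-count scaling, no filter, a filter at 30 counts, DESeq2 1.42.0, limma voom (limma 3.58.1), a joint fit, a replicate block and leaving out each well. Upstream sequences came from a RefSeq table (GRCm38.p6) and were read for 7 of the 9 members, all but Gpr17 and Cspg5. Member entries on the chromosome of Gpr17 were left out, so an entry of that gene would not show. Motifs were matched on both strands. Gene overlaps were read from GENCODE M21. Some values of single genes outside the 9 are not reported here.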

Additional observations from a re-analysis of the deposited data

Results flagged for a closer look

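A well stood apart from the other 5 of its group in 13 of 188 sets of 6 values, where chance gives about 1 in 20, or 9.4. For the members this was Cspg4 in replicate 5 at 10 mM, with 69.2 CPM where the others had 49.5 to 55.8 CPM. Without that well no member's call at 10 mM changed.

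In the lists, Cntn1 had 173 CPM in control replicate 4 of experiment 2, Pdgfa 178 CPM in replicate 2 at 10 mM, and Tnc 101 CPM in replicate 1 at 10 mM. Replicate 1 at 30 mM was high for Rras2 (76.4 CPM) and low for Tcf7l2 (125 CPM), and its summed mature oligodendrocyte level was 11549 CPM, where the others reached 6818 CPM. Among the other sums, those of the PDGF genes were 164.6 CPM in replicate 6 at 30 mM and 229.5 CPM in replicate 2 at 10 mM, and that of the Ptprz1 partners was 2504 CPM in control replicate 4 of experiment 2. The astrocyte sum was 3748 CPM in control replicate 6 of experiment 1 and 6635 CPM in replicate 2 at 30 mM, where the proliferation sum was 1052 CPM.

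The ethanol change differed between the experiments for 4 of the named genes, as the change at 30 mM minus that at 10 mM on the log2 scale. These were Gria3 (0.70, edgeR adjusted p = 0.0116), Fgf2 (0.67, edgeR adjusted p = 0.00123), Cacng4 (-0.48, edgeR adjusted p = 0.0293) and Tnc (-0.71, edgeR adjusted p = 0.000883). Dose, experiment and batch cannot be told apart in them. The value of Cacng4 was lost in 11 of 32 alternatives, among them DESeq2, limma voom and leaving out replicate 5 or 6 at 30 mM, control replicate 4 of experiment 1, replicate 1 or 2 at 10 mM or control replicate 2 or 5 of experiment 2.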

How the results depend on the processing

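The average over both experiments was chosen after seeing the data. The cause of a changed value was not tested, beyond what fewer wells or another set of tested genes change by construction. No called value changed sign. In the joint fit of all wells 21 genes were called at 10 mM, and leaving out 1 well gave 37 to 95. Members called at 30 mM were 2 with upper-quartile scaling, 0 with no filter, 2 with the filter at 30 counts, 0 with the replicate block, and 0 to 1 when 1 well was left out. At 10 mM they were 0 to 1 when 1 well was left out. Between the control groups they were 3 with no filter, 4 in the joint fit and 4 to 7 when 1 well was left out. For the difference between the experiments, 329 to 759 genes were called when 1 well was left out, and upper-quartile scaling gave 222 higher and 203 lower in place of 129 and 352. For the average, 1 member was called with RLE scaling, 1 with no filter, 1 with DESeq2 and 0 to 2 when 1 well was left out.

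No pairing of wells by replicate number was seen in expression, which cannot show whether same-numbered wells shared a preparation. Correlations of same-numbered wells were between -0.169 and 0.234, and a well correlated best with its own number in 1 of 6 cases in experiment 1 and 0 of 6 in experiment 2. With the replicate block, 1208 genes were called at 30 mM, 68 at 10 mM, 461 for the difference, 5860 between control groups and 781 for the average. The precision of Gpr17, Cspg4, Bmp4 and Pdgfra is limited by their counts of 27 to 113 per well.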
